A study of Danio rerio with 49 samples.

Results

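The genes described here were low at 1 week and raised at 4 and 6 weeks after transection of the zebrafish spinal cord. They were chosen from the expression values themselves. A gene of the Ensembl annotation entered if its mean FPKM (fragments per kilobase of gene scaled to the mapped fragments of the library) over the 49 libraries was at least 1, if its change from uninjured cord was below 0.3 at week 1 in both regions, and if its change was at least 0.6 at weeks 4 and 6 in both. A change is the mean log2(FPKM + 0.1) of a region and week minus that of the same region in uninjured fish. Of 13892 such expressed genes, among 40085 rows in all, 982 met the late limits, and 818 of these were already at or above 0.6 at week 1 in both regions. Only 32 of the 982 were below 0.3 at week 1 in both, and these 32 genes are the members. The changes at weeks 1, 4 and 6 chose them, so these are a description and carry no test. Raised only late is not what all of them showed, since 15 of the 32 had a change of at least 0.6 in both regions by week 2, a time that entered the rule only through the mean FPKM over all libraries. Among the 15 was zgc:91968, which reached that mean only with its week 2 libraries.

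RNA was sequenced from spinal cord of juvenile or young adult zebrafish (Danio rerio, strain AB, both sexes) after a complete cut through the cord at the seventh segment. The 5 segments rostral and the 5 segments caudal to the lesion were collected 1, 2, 4 or 6 weeks after the cut (wpi, weeks post injury), and the matching segments of uninjured fish served as controls. Each of the 10 groups held 5 libraries, except caudal 6 wpi with 4 (numbered 1, 2, 3 and 5). Each library pooled tissue of fish, with 3 fish a group given in the series text. Values given below for libraries 4 and 5 rest on library 5 alone at caudal 6 wpi. Nothing in the labels says that the numbered libraries of a group are separate cohorts, so p-values measure the spread between these libraries. The labels do not link libraries of different times, even where these share a number. The age of the uninjured fish at collection is not stated, and time after injury and age cannot be told apart.

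Zebrafish regrow a severed spinal cord, in contrast to mammals. Macrophages and microglia clear debris in the first days, glia bridge the gap, and axons then cross it over the following weeks. In antigen presentation, a system with 2 of the members, the invariant chain guides class II molecules through the cell and beta-2-microglobulin is the light chain of class I molecules. The members are described below by the known role of each gene, and no role was tested for enrichment.

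Between 4359571 and 26940599 fragments per library fell on annotated genes, and 9.25 to 33.4% of them came from the mitochondrial genome. The lowest depth was that of rostral 1 wpi replicate 1, and the next lowest was 11102591 (rostral 1 wpi replicate 2). Without rostral 1 wpi replicate 1, TIMP4, cax2, si:dkey-19a16.5 and si:ch211-195h23.3 no longer met the limits. Neuronal (ELAVL3, 63.6 to 139 FPKM), glial (GFAP, 432 to 2379 FPKM) and myelin (mbpa, 7502 to 110859 FPKM) markers were present in all 49 libraries. Libraries numbered 4 and 5 resembled each other across times, with a mean correlation of 0.28 between their deviations from the group means, against 0.11 among libraries 1 to 3 and -0.17 between the sets. The control libraries differed strongly in the members. The control numbered 5 was the highest of its region for 17 of the 32 members in rostral and 23 in caudal cord, with a median deviation from the control mean of 0.72 and 0.87 on the log2 scale, while the control numbered 1 was the lowest for 17 members in each region (median deviation -0.72 and -0.74). Over all expressed genes the same 4 libraries deviated by -0.06 to 0.08.

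**Figure D1:**
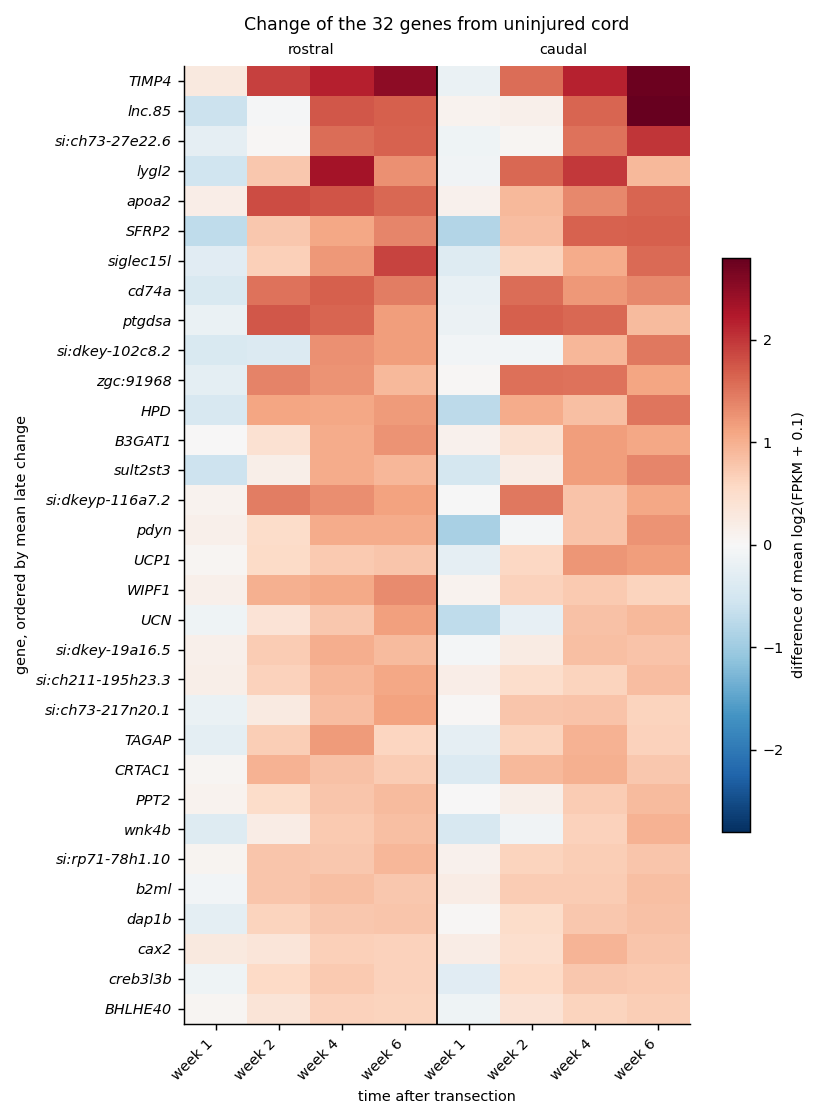
Change of each of the 32 members from uninjured cord of the same region, as the difference of mean log2(FPKM + 0.1), by week after transection. Rows are ordered by the mean of the 4 late changes, from 2.40 (TIMP4) to 0.64 (BHLHE40). Week 1 is near or below 0, week 2 is mixed, and weeks 4 and 6 are raised because the members were chosen so.

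The median change of the members was -0.12 rostrally and -0.11 caudally at week 1. It was 0.65 and 0.59 at week 2, 1.04 and 0.94 at week 4, and 1.1 and 0.94 at week 6. The week 2 medians moved with the libraries: in libraries 4 and 5 they were 0.26 and 0.23, and without caudal control replicate 1 the caudal one was 0.37. Over all expressed genes the median lay between -0.04 and 0.04 in the 8 groups. At week 1, where the rule kept only changes below 0.3, 18 members rostrally and 20 caudally were below the uninjured mean. A mean below 5 FPKM over all libraries was found for 18 of the 32 members (56.25%), near the 51.8% of all expressed genes. In bulk tissue a change in the number of cells of a type and a change in RNA per cell cannot be told apart.

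The uninjured libraries spread widely, and it was counted which members were above all controls in every library of a group. At 4 wpi this held for 4 of 32 members rostrally (apoa2, B3GAT1, si:ch211-195h23.3 and si:rp71-78h1.10) and 4 caudally (SFRP2, B3GAT1, cax2 and BHLHE40), against 7.34% and 4.01% of all expressed genes. At 6 wpi it held for the same 4 rostrally and for si:dkey-102c8.2, B3GAT1, pdyn, si:ch211-195h23.3 and BHLHE40 caudally (background 5.56% and 3.62%). At 2 wpi it held for apoa2 and si:ch211-195h23.3 rostrally and for 0 caudally (background 10.5% and 6.98%), and at 1 wpi for 0 in both regions (background 8.67% and 9.29%). B3GAT1 was the only member above every control in all 4 late groups. The rule used weeks 1, 4 and 6 and the controls, so these counts describe the members and support nothing.

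The most abundant member was cd74a (ENSDARG00000009087, chr14:3038473-3052361, danRer11, plus strand), which encodes the invariant chain of class II molecules. In rostral cord it stood at 129, 282, 321, 716 and 1249 FPKM in uninjured libraries 1 to 5 and at 199, 191, 179, 525 and 643 FPKM at 1 wpi. Libraries 1 to 3 then gave 1989, 1016 and 1366 FPKM at 2 wpi, 1228, 942 and 1109.6 FPKM at 4 wpi and 900.1, 838 and 855 FPKM at 6 wpi. Every one of these 9 values was above all uninjured libraries numbered 1 to 3. Uninjured libraries 4 and 5 were higher. The libraries of these numbers gave 935 and 814 FPKM at 2 wpi, 1747 and 1508 FPKM at 4 wpi and 1404 and 1685 FPKM at 6 wpi. In caudal cord the group means moved from 519 ± 447 FPKM (SD, n = 5) in uninjured fish to 372 ± 173 FPKM at 1 wpi (n = 5) and 1219 ± 448 FPKM at 2 wpi (n = 5). They were 949 ± 289 FPKM at 4 wpi (n = 5) and 1071 ± 496 FPKM at 6 wpi (n = 4). The late changes were 1.67 and 1.44 rostrally and 1.22 and 1.35 caudally, and the week 2 changes of 1.53 and 1.57 were as large. The single uninjured library numbered 5 overlapped the late values in both regions.

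The second member of this system was b2ml, a beta-2-microglobulin-like gene (ENSDARG00000015887). Its rostral values were 37.6, 40.6, 83.1, 84.2 and 178 FPKM in uninjured libraries and 76.7 to 168 FPKM at 4 wpi, so the groups overlapped. The changes were small beside those of cd74a, at 0.83 and 0.75 rostrally and 0.71 and 0.84 caudally late, and 0.79 and 0.70 at week 2. Deviations of b2ml, cd74a and TIMP4 from their group means ran together over the 49 libraries (r = 0.85 to 0.88). Over all 496 pairs of members the median r was 0.14, and 57 pairs were above 0.5. This describes how the libraries vary, and its cause was not tested.

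Other genes of antigen presentation were read from a list of 27 symbols, of which 21 were in the table and 20 had a mean FPKM of at least 1. The closest to cd74a was its paralog cd74b, which changed by 0.10 and 0.37 at week 1, 1.64 and 1.70 at week 2, 1.66 and 1.22 at week 4 and 1.35 and 1.34 at week 6 (rostral and caudal). It missed membership by its caudal week 1 value alone. At week 1 the conventional beta-2-microglobulin gene b2m had changed by 0.91 and 1.17 and the class II alpha chain gene mhc2dga by 0.82 and 1.19. The cathepsin S gene ctss2.2 had changed by 2.23 and 2.75. Of these, limma called only ctss2.2 at week 1 (adjusted p = 0.00037 rostrally and 8.9e-05 caudally). For b2m the limma adjusted p was 0.26 and 0.083, and for mhc2dga it was 0.44 and 0.21. Of the 19 tested genes of the list that were not members, limma called 5, 10, 10 and 6 higher than in uninjured rostral cord at weeks 1, 2, 4 and 6 (background over all tested rows 6.32%, 9%, 5% and 3.44%), and 0 lower. In caudal cord it called 7, 7, 1 and 1 higher (background 7.62%, 4.47%, 1.15% and 0.345%), and 0 lower. Only 4 of the 20 expressed genes of the list were below 0.3 at week 1 in both regions, cd74a and b2ml among them. Also among them were ciita, which changed by 0.66 and 0.51 at week 4, and mhc1uba, which changed by -0.12 and -0.16.

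**Figure D2:**
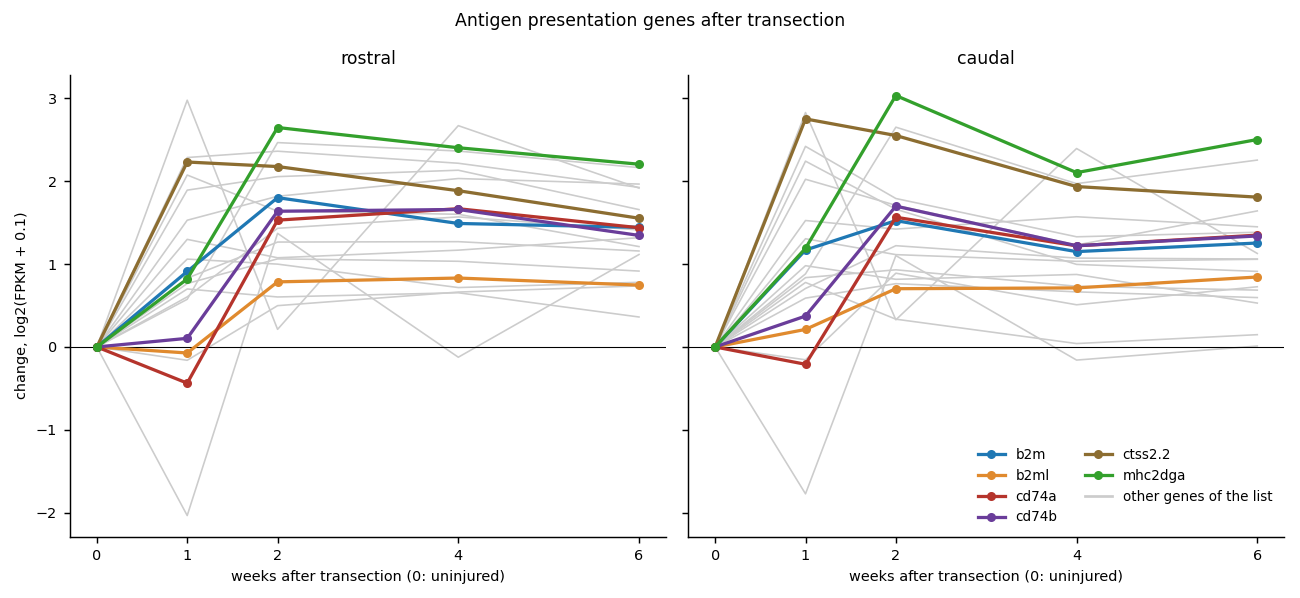
Change from uninjured cord, in log2(FPKM + 0.1), of the 20 antigen presentation genes expressed at 1 FPKM or more on average, by week after transection in rostral and caudal cord. The members cd74a and b2ml, and cd74b, start near 0 at week 1 and step up at week 2. The mean changes of b2m, mhc2dga and ctss2.2 (coloured) are higher at week 1, where limma called only ctss2.2 of these. Grey lines are the other genes of the list.

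Of 14 tested macrophage and microglia markers, limma called 12, 13, 14 and 6 higher rostrally at weeks 1, 2, 4 and 6 and 13, 14, 9 and 3 caudally, with the background shares just given. Their summed FPKM was 344 to 2023 in uninjured rostral libraries, and in the order of weeks 1, 2, 4 and 6 it ran 6833 to 17396, 7583 to 10813, 3527 to 8323 and 2098 to 5700. In caudal cord the sum was 354 to 2282 in uninjured libraries, then 9058 to 27209, 9038 to 25621, 4130 to 10281 and 2815 to 11646 FPKM. Its median was highest at 1 wpi in both regions, where the mean of cd74a was lowest. Most of the sum was apoeb (6738 FPKM on average), and single markers differed: csf1rb, a receptor gene of these cells, changed by 0.37, 1.33, 1.58 and 1.23 rostrally and by 0.84, 1.49, 1.35 and 1.54 caudally. The summed FPKM of 23 T and NK lymphocyte markers, with lck and prf1.1 at 0 in every library, was 17.8 to 44.2 in uninjured rostral cord and, in the order of weeks, 9.73 to 19.7, 18.2 to 35.1, 24.4 to 33.8 and 22.4 to 35.5. Caudally it was 22 to 59.2, 12.2 to 18.4, 20.5 to 38.7, 25.2 to 32.2 and 21.1 to 39.5. Of these 23 markers, only 5 had a mean of at least 1 FPKM over all libraries. The part of either cell type in the members' values was not tested.

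Further members are known from blood cells. TAGAP, a gene of activated T cells in human, had 0.91 to 3.51 FPKM in uninjured rostral libraries, 1.08 to 1.97 FPKM at 1 wpi and 2.85 to 5.86 FPKM at 4 wpi. At 6 wpi it was back to 1.82 to 4.54 FPKM there. Then 2 of the 5 rostral and 1 of the 4 caudal libraries were above the highest control of their region. WIPF1, which binds the Wiskott-Aldrich syndrome protein and organizes actin, changed by 0.93 on average late and siglec15l, related to the mammalian sialic acid receptor Siglec-15, by 1.43. In siglec15l, 4 of the 5 rostral 6 wpi libraries (5.47 to 10.9 FPKM) exceeded the highest uninjured rostral value of 4.55 FPKM. At 4 wpi 1 rostral and 1 caudal library exceeded the highest control of their region, and at caudal 6 wpi 2 did. In all, 8 of the 19 late libraries did. lygl2, a goose-type lysozyme, was erratic: rostral 4 wpi libraries gave 4.39, 0.358, 11.3, 4.57 and 4.81 FPKM. The libraries numbered 2 were low at every time, including 0.081 FPKM in uninjured rostral cord. In the rostral libraries numbered 5 lygl2 was 0.074 FPKM in uninjured fish, 6.39 at 2 wpi and 0.286 at 6 wpi. In caudal library 5 lygl2 was 0.072 FPKM at 6 wpi. Its neighbour lygl1, 12811 bases away on the same strand, changed by 2.59 and 2.65 at week 1 and was not a member.

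Among secreted proteins, TIMP4, a tissue inhibitor of metalloproteinases (ENSDARG00000100795, chr11:714386-718748, plus strand), had the largest late change at 2.40, or 5.27-fold on this scale. Uninjured rostral libraries 1 to 5 gave 4.72, 5.70, 13.7, 33.6 and 131 FPKM. The rostral 1 wpi libraries gave 9.37, 9.10, 15.9, 53.5 and 56.9 FPKM, and the 2 wpi libraries 64.9, 43.4, 69.9, 90.5 and 72.4 FPKM. All rostral libraries at 2 wpi were above the uninjured libraries 1 to 4 and below control 5. At 6 wpi rostral libraries held 94.0, 85.5, 117, 141 and 77.7 FPKM, and caudal libraries 121, 79.9, 134 and 162 FPKM. In libraries 1 to 3 alone the late change was 3.46, and in libraries 4 and 5 it was 0.86. The reference table gives the symbol TIMP4 to 3 rows in this stretch of chromosome 11. ENSDARG00000102617, 3354 bases away, had changed by 1.54 and 2.09 at week 1 already, and ENSDARG00000111805 changed by 0.03 on average late. All of the member lies inside syn2b, on the other strand, whose late change was 0.02, and reads of overlapping genes cannot be separated where counting did not use strand.

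SFRP2, a secreted frizzled-related protein that binds Wnt ligands (ENSDARG00000070050, chr1:25491324-25496133, minus strand), had the lowest week 1 change of the members when averaged over regions, with -0.71 rostrally and -0.81 caudally. Uninjured caudal libraries gave 0.494, 1.68, 0.522, 0.523 and 2.11 FPKM and 1 wpi libraries 0.475, 0.416, 0.565, 0.23 and 0.727 FPKM. The caudal 4 wpi libraries gave 3.31, 3.66, 2.88, 2.85 and 2.27 FPKM, all above the highest uninjured one. The rostral 4 wpi values were lower, at 1.35, 0.987, 1.87, 2.22 and 2.15 FPKM. These levels rest on few fragments, 2 to 39 per rostral library in the uninjured and 1 wpi groups and 51 to 142 at caudal 4 wpi. Its relative SFRP5 had a mean late change of -0.90.

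ptgdsa, a prostaglandin D2 synthase of the lipocalin family, gave 3.98, 1.07, 3.49, 8.04 and 11.2 FPKM in uninjured rostral libraries and 21.1, 8.43, 17.1, 11.8 and 17.2 FPKM at 2 wpi. It changed by 1.73 and 1.67 at week 2, more than at week 6 (1.18 and 0.88). Its paralog ptgdsb.1 had a late change of -0.82. CRTAC1 (ENSDARG00000059826), an extracellular protein whose mouse form LOTUS antagonizes the Nogo receptor, changed by 0.98 and 0.92 at week 2 and 0.82 on average late. Its uninjured rostral values of 16.4, 68.0, 22.2, 89.3 and 76.2 FPKM overlapped all later groups. In libraries 4 and 5 its late change was 0.01. The second CRTAC1 row, ENSDARG00000102517, changed by -0.50.

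apoa2, an apolipoprotein of high density lipoprotein, was 1 of the members above all controls in every rostral library from 2 wpi on. Uninjured rostral libraries gave 0.634, 0.544, 0.342, 0.313 and 0.388 FPKM, and 1 wpi libraries 0.662, 0.301, 0.232, 0.747 and 0.805 FPKM. The rostral 2 wpi libraries gave 2.08, 0.765, 1.94, 2.37 and 2.30 FPKM and the 4 wpi libraries 2.72, 1.39, 1.74, 1.14 and 1.95 FPKM. The counts behind them were 4 to 12 fragments per uninjured rostral library and 14 to 53 at 2 wpi. On the same strand of chromosome 16 lie apoc1, 5257 bases away, and apoeb, 15517 bases away, both far more abundant (878 and 6738 FPKM on average) with week 1 changes of 2.34 and 3.94 rostrally, against 0.18 for apoa2.

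**Figure D3:**
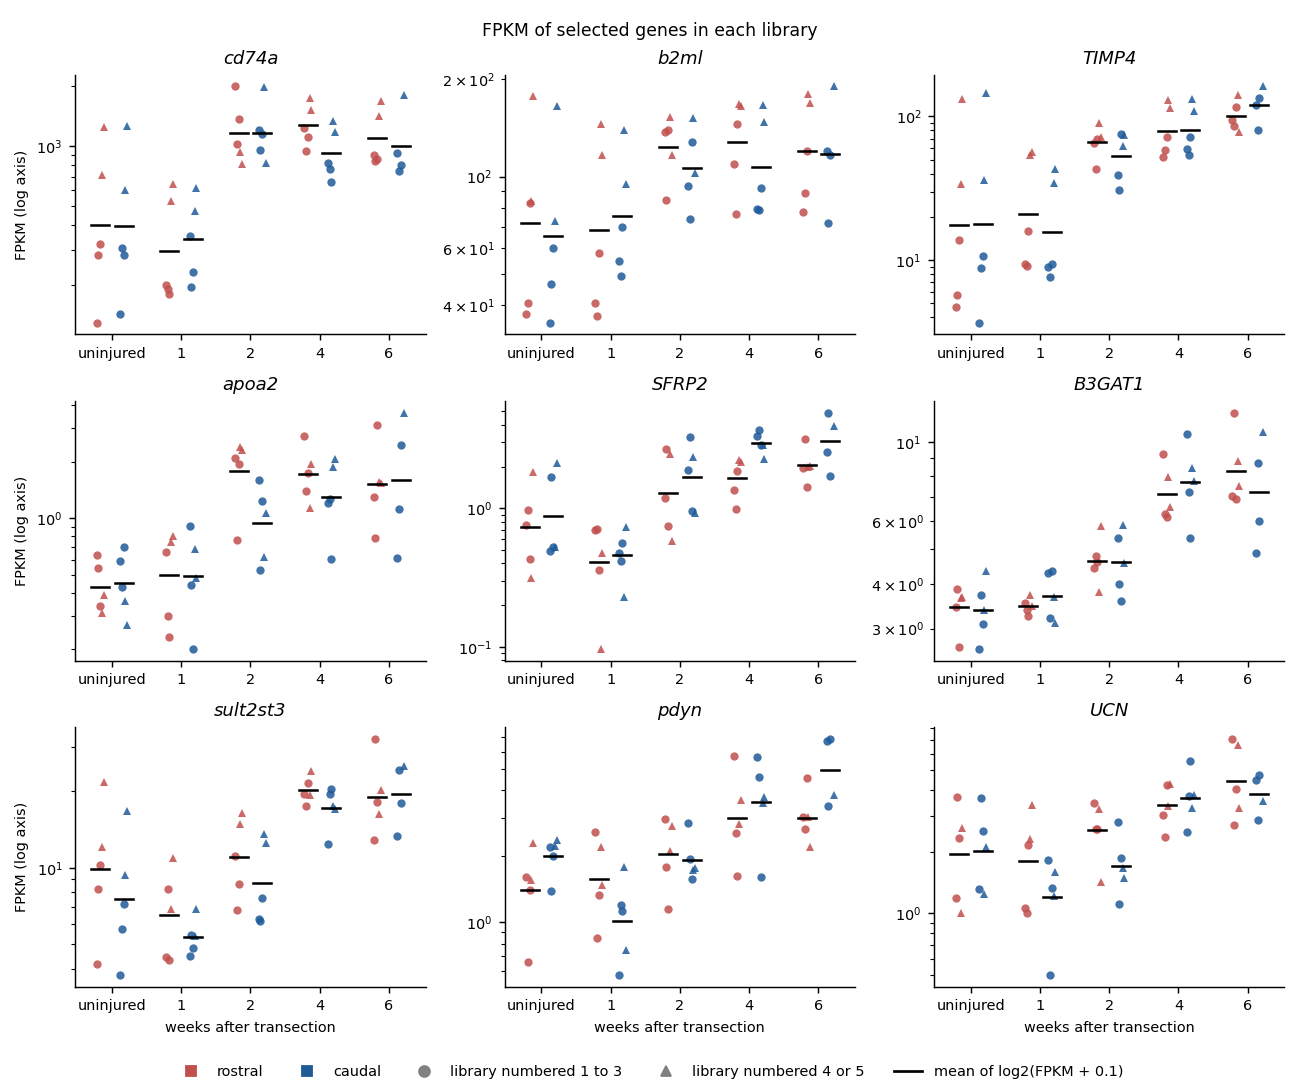
FPKM on a log axis in each library for 9 members, by week after transection, rostral in red and caudal in blue. Circles are libraries numbered 1 to 3, triangles those numbered 4 or 5, and bars the back-transformed mean of log2(FPKM + 0.1). For cd74a, b2ml and TIMP4 the uninjured libraries 4 and 5 sit above libraries 1 to 3, and for B3GAT1 all 4 and 6 wpi libraries (4.90 FPKM or more) sit above the highest uninjured one (4.34 FPKM).

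Of the neuropeptide genes, pdyn and UCN were members. pdyn encodes prodynorphin, the precursor of opioid peptides. In caudal cord it gave 2.2, 1.39, 2.00, 2.23 and 2.38 FPKM in uninjured libraries, 0.574, 1.2, 1.13, 1.78 and 0.751 FPKM at 1 wpi and 2.84, 1.94, 1.58, 1.73 and 1.77 FPKM at 2 wpi. At 6 wpi all 4 caudal libraries (6.74, 3.41, 6.87 and 3.81 FPKM) were above every uninjured one. Rostrally its mean went from 1.51 ± 0.58 FPKM (SD, n = 5) to 3.26 ± 1.55 FPKM at 4 wpi and 3.09 ± 0.87 FPKM at 6 wpi (n = 5 each), and the week 1 change was 0.15. pdyn overlaps GMEB2 by 1930 bases on the other strand, where reads cannot be separated if counting did not use strand. The late change of GMEB2 was 0.11. UCN, a urocortin of the corticotropin-releasing factor family, was 1.19, 3.68, 2.33, 1.00 and 2.61 FPKM in uninjured rostral libraries. At 6 wpi it was 7.11, 2.69, 4.03, 6.62 and 3.27 FPKM there, 3 of 5 above all controls. Its relative UCN3 changed by 1.22 at week 1 and 2.37 at week 6 rostrally. Of 29 rows matched to the neuropeptide list, pdyn was the only member. Others such as tac1 (2.40 rostrally) and pnocb (2.04) had changed by week 1.

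B3GAT1 (ENSDARG00000113928, chr10:39164638-39179337, plus strand) encodes a glucuronyltransferase of the kind that builds the HNK-1 carbohydrate on neural adhesion molecules. Uninjured rostral libraries gave 3.46, 3.87, 2.67, 3.65 and 3.67 FPKM, and 1 wpi libraries 3.53, 3.39, 3.24, 3.72 and 3.47 FPKM. Rostral libraries stood at 4.44, 4.78, 4.62, 3.8 and 5.8 FPKM at 2 wpi, 9.24, 6.30, 6.16, 7.96 and 6.58 FPKM at 4 wpi and 7.07, 12.1, 6.93, 8.85 and 7.54 FPKM at 6 wpi. Caudal means were 3.43 ± 0.64, 3.73 ± 0.59, 4.68 ± 0.95, 7.88 ± 1.88 and 7.57 ± 2.61 FPKM in the same order (SD, n = 5, and 4 at 6 wpi). The late change was the same in libraries 1 to 3 (1.16) and 4 and 5 (1.15). It overlaps b3gat1b by 888 bases on the other strand, and b3gat1b had a late change of 1.22. Reads of this overlap cannot be separated if counting did not use strand. The second B3GAT1 row, on chromosome 18, changed by -0.17.

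sult2st3, a cytosolic sulfotransferase, had week 2 changes of 0.15 and 0.20. Caudal libraries gave 3.78, 5.71, 7.18, 9.37 and 16.7 FPKM in uninjured fish, 6.29, 6.19, 7.58, 13.5 and 12.5 FPKM at 2 wpi and 12.4, 19.4, 20.4, 17.6 and 17 FPKM at 4 wpi. Rostrally 1 of 5 libraries at 4 wpi and 1 of 5 at 6 wpi was above the highest control. Of all 19 late libraries, 9 were above the highest control of their region. The paralogs sult2st1 and sult2st2 had late changes of -0.22 and -0.85. HPD, an enzyme of tyrosine breakdown, changed by 1.16 late and by 1.1 and 1.03 at week 2. The changes of UCP1, a mitochondrial uncoupling protein, were 0.73 to 1.24 late, and UCP2 had its largest change rostrally at week 2 (1.45). PPT2, a lysosomal thioesterase, changed by 0.82, or by 1.33 in libraries 1 to 3 and 0.12 in libraries 4 and 5. Of its 19 late libraries, 5 were above the highest control of their region. The symbol PPT2 is given to 2 rows, and the other row was not a member. Of the genes for ion handling, the cation exchanger gene cax2 changed by 0.76 and the kinase gene wnk4b by 0.80, the latter after -0.37 rostrally and -0.44 caudally at week 1.

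The transcription factor genes BHLHE40 and creb3l3b had the smallest late changes. BHLHE40, a repressor that acts in the circadian clock of mammals, was 11.7, 23.8, 34.9, 31.7 and 33.7 FPKM in uninjured rostral libraries and 40.1, 47.9, 32.4, 38.5 and 40.3 FPKM at 4 wpi. Caudally all 5 libraries at 4 wpi (41.1 to 44.9 FPKM) exceeded the highest control (38.5 FPKM). Of 21 other genes tested from a list of clock genes, limma called 5, 7, 0 and 1 lower rostrally at weeks 1, 2, 4 and 6 (background 3.5%, 6.14%, 1.43% and 0.823%) and 7, 3, 0 and 1 caudally (background 5.53%, 1.89%, 0.226% and 0.116%). It called 0, 0, 2 and 1 of them higher rostrally and 0 caudally at every week. The relative BHLHE41 had a late change of -0.57. creb3l3b, of the membrane-bound CREB3 family, changed by 0.72 and dap1b, related to a human inhibitor of autophagy, by 0.77. In dap1b the control numbered 5 (474 FPKM rostrally and 466 FPKM caudally) was above all but 1 of the 19 late libraries, the exception being rostral 6 wpi replicate 4 with 654 FPKM.

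Among the 9 members with clone or locus names, for which no role is given here, si:ch211-195h23.3 was above all controls in every rostral library at 2, 4 and 6 wpi (2.32 to 4.96 FPKM against 1.08 to 2.19 FPKM). It lies 1587 bases from gbp3 on the same strand, which changed by 1.28 late. ENSDARG00000031731 (the third row of the plot of changes by week) and si:dkey-102c8.2, both on chromosome 22, deviated together over the 49 libraries (r = 0.88), and library 4 had 0 FPKM of the first at 1 and 2 wpi in both regions. The late changes of zgc:91968 (1.2), si:dkeyp-116a7.2 (1.07), si:dkey-19a16.5 (0.89) and si:ch73-217n20.1 (0.86) rest on groups that overlapped the controls. For si:rp71-78h1.10 (0.79), 17 of the 19 late libraries were above the highest control of their region. lnc.85 had the second largest late change, 1.98, but was listed at 0 in 14 of the 49 libraries, among them every library numbered 4 after injury. In libraries 1 to 3 it changed by 3.61 late and in libraries 4 and 5 by -0.41. It lies 2528 bases from PPT2 on the same strand of chromosome 19, the only pair of members within 20000 bases of each other. The 32 members lay on 14 chromosomes, with at most 4 on any one.

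At week 2 the members split. In 15 the change was at least 0.6 in both regions, in 5 it was below 0.3 in both, and 12 lay between. The 5 that were still low were lnc.85, ENSDARG00000031731, si:dkey-102c8.2, sult2st3 and wnk4b. Averaged over regions, the 3 highest week 2 changes were those of TIMP4 (1.73), ptgdsa (1.70) and cd74a (1.55), and the 3 lowest those of si:dkey-102c8.2 (-0.23), ENSDARG00000031731 (0.04) and wnk4b (0.05). For ptgdsa, cd74a, si:dkeyp-116a7.2 and CRTAC1 the week 2 change was 109 to 135% of the late mean. The week 2 change of zgc:91968, among the 15, is not read, since this gene met the expression limit only with its week 2 libraries. Of the late genes that were not members, 878 were at or above 0.6 at week 2 in both regions. The week 2 changes use the same control libraries as the rule and carry no test.

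**Figure D4:**
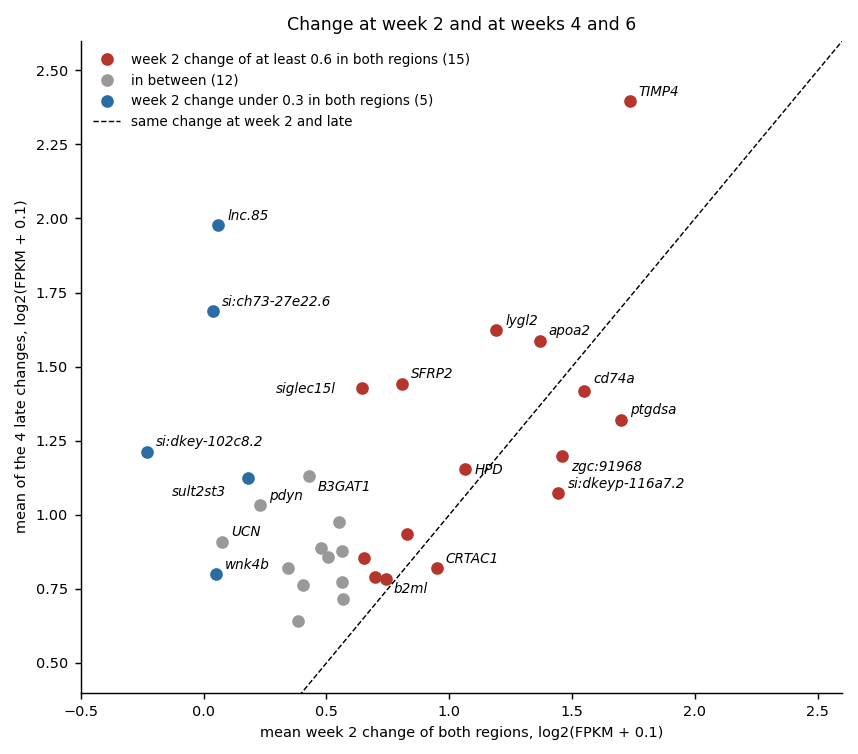
Mean change at week 2 of both regions (x axis) against the mean of the 4 late changes (y axis), in log2(FPKM + 0.1), for the 32 members. Red points were raised in both regions at week 2, blue points were below 0.3 in both, and the dashed line marks equal change. For the members right of the line, such as ptgdsa and cd74a, the week 2 change exceeded the mean of the late ones.

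The limits on change used no week 2 library, and the expression limit used these only within the mean over all 49, so the difference between caudal and rostral cord at 2 wpi was not chosen on. One member, zgc:91968, met the expression limit only with its week 2 libraries (0.924 FPKM without them). limma with Benjamini-Hochberg adjustment over 27834 rows called 0 of the 32 members (background 0.122%, 34 rows), as did limma voom on recovered fragments (0 of 32, 30 rows). At an unadjusted p under 0.05 there was 1 member in each (3.13%, against 7.16% and 7.04% of all rows), apoa2, which was 0.85 lower caudally on the log2 scale (SE 0.35, limma adjusted p = 0.654). The members' differences ran from -0.85 to 0.71 with a median of -0.06 and a median SE of 0.30, and 28 of 32 were within 0.5. Same-numbered libraries of the 2 regions deviated together, and with the number as a block 484 rows were called but again 0 members, with 7 (21.9%, against 17.7% of all rows) at an unadjusted p under 0.05. With the block the members' median SE was 0.17, and the lowest limma adjusted p was that of apoa2, 0.112.

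At the other times the region difference describes libraries that the rule used. limma called 0 of 32 members in uninjured cord (background 0.0213%), at 1 wpi (background 0.047%), at 4 wpi (background 0.128%) and at 6 wpi (background 0.0319%), and limma voom and the blocked fit also called 0. At an unadjusted p under 0.05 there were 0, 0, 1 and 1 members, where all rows gave 1.18%, 2.42%, 6.94% and 2.97%. With the block there were 3, 3, 5 and 2 members (9.38%, 9.38%, 15.6% and 6.25%, against 6.09%, 12.2%, 16.3% and 6.86% of all rows). As a description, SFRP2 was higher caudally by 0.81 at 4 wpi and pdyn by 0.71 at 6 wpi. The largest difference at 6 wpi was that of lnc.85, 1.17 higher caudally. It read 0 in rostral library 4, and caudal 6 wpi has no library 4. With the block the largest difference at 6 wpi was 0.71. None of these genes was called.

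The 2 sets of libraries gave different sizes. The median late change of the members was 1.24 in libraries 1 to 3 and 0.69 in libraries 4 and 5, with library 5 alone at caudal 6 wpi. The mean late change was above 0 in both sets for 30 of the 32, the exceptions being lnc.85 and dap1b, and at least 0.6 in both for 16. SFRP2 (1.51 and 1.38), B3GAT1 and HPD (1.12 and 1.2) had like values in both sets. The late changes of zgc:91968 (0.48 and 2.40) and apoa2 (1.21 and 2.30) were higher in libraries 4 and 5. For lygl2 the late means were alike (1.47 and 1.51), but its week 2 changes were -0.36 and 3.52. Its late mean in libraries 4 and 5 joined 3.50 FPKM in library 4 at caudal 4 wpi with 0.072 FPKM in library 5 at caudal 6 wpi. At week 1, 6 members were at or above 0.6 in 1 of the sets, and 20 were below 0.3 in both.

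**Figure D5:**
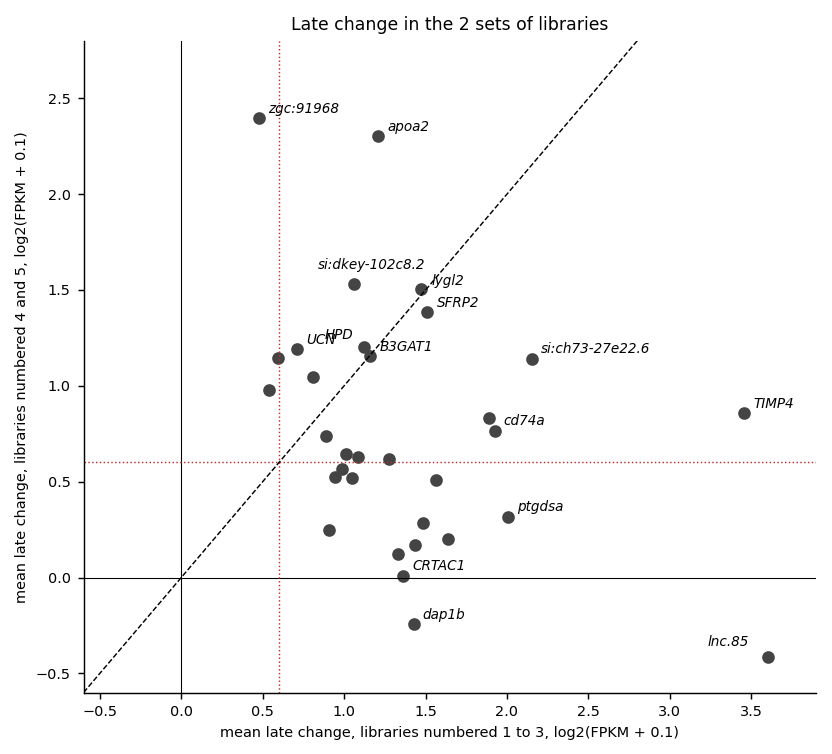
Mean late change of each member in libraries 1 to 3 (x axis) and in libraries 4 and 5 (y axis), in log2(FPKM + 0.1). At caudal 6 wpi the set of libraries 4 and 5 holds library 5 alone. Dotted lines mark 0.6 and the dashed line equal change. Points such as TIMP4 (3.46 and 0.86) and lnc.85 (3.61 and -0.41) lie far below the dashed line, and B3GAT1 and SFRP2 lie near it.

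Membership hung on single libraries for most of the genes. When each of the 49 libraries was left out in turn, 4 members met the limits every time: cd74a, SFRP2, B3GAT1 and sult2st3. The other 28 dropped out without at least 1 library. Without caudal control 5, 21 of the members still met the limits, and without both controls numbered 5, 18 did, with 11 members at or above 0.3 at week 1 in a region. SFRP2 and HPD were the 2 genes of the table that met all limits both in libraries 1 to 3 and in libraries 4 and 5. Both dropped out with a pseudocount of 1 and under an expression limit of 5 FPKM. HPD also dropped out without caudal control replicate 2 or 4. In HPD 7 of the 19 late libraries were above the highest control of their region, with 0 at caudal 4 wpi.

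Near the week 1 limit of 0.3 the members cax2 (0.28), TIMP4 (0.26) and b2ml (0.21) lay just inside, and cyp2p7, cep135 (both 0.30) and dchs2 (0.32) just outside. At the late limit of 0.6, TAGAP (0.61), BHLHE40 and WIPF1 (both 0.62) were inside, and ENSDARG00000098938, UST (both 0.59) and clk4a (0.58) outside. At the expression limit the lowest members were zgc:91968 (1.06 FPKM), lnc.85 (1.1 FPKM) and apoa2 (1.16 FPKM), and ENSDARG00000090901 (0.94 FPKM), XCR1 (0.90 FPKM) and si:dkey-78o7.3 (0.89 FPKM) fell short. The members were shorter than other expressed genes, with a median length of 1527.5 against 2248 bases, and somewhat less abundant, with a median mean FPKM of 3.56 against 4.71.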

How the data were processed

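Total RNA of spinal cord segments was sequenced from NEBNext Ultra RNA libraries, and the labels do not say that strand was kept. The authors aligned reads to danRer11 with HISAT2 2.0.5 and counted fragments with featureCounts 1.5.0-p3, per the methods and the submitters' processing notes, and the deposited FPKM values of 49 libraries are what was used. FPKM divides by gene length and mapped fragments, so changes are relative to the rest of each library. The authors tested with DESeq2, which was not used here. Fragment counts recovered from FPKM and length were whole within 0.1 for 100% of the nonzero values checked, and large counts were not checked. Depth was 4359571 to 26940599 fragments on genes (median 19801039).

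Members were found by the rule given in the report, on log2(FPKM + 0.1), which understates changes of low genes. The members and the gene lists were chosen with earlier results of these data known. Regions and times were compared with limma 3.58.1 (R 4.3.3, trend, rows averaging 0.1 FPKM or more over the compared libraries, Benjamini-Hochberg adjusted p under 0.05), each comparison fitted on its own groups. Tested on simulated data for caudal against rostral cord at 2 wpi with 27783 genes, the fit called 173 of 199 genes changed by 2 on the log2 scale, with 8 false among 181 calls. The simulated libraries were unpaired, with the same dispersion for all genes. Smaller changes, such as those of the members between regions, were not simulated. The titles number the libraries and state no pairing of rostral and caudal ones. In all 24 pairs of the same number the deviations from the group means correlated (lowest r 0.29, mean 0.62). Differently numbered libraries of the same time were not set beside them, so pairing was not tested. The fit with the number as a block is given where it moved a count. Named genes were the 25 members with the largest late change and a gene symbol, members in a list, and those nearest each limit or highest and lowest at week 2. Others are named for values seen. Alternatives were other pseudocounts, filters, scalings and fits, sets of libraries, and each library left out. Symbols came from a reference table that matched 29178 rows. Tables and figures were made with Python 3.11.15, pandas 2.3.3, numpy 2.4.6 and matplotlib 3.10.9. Promoter motifs and protein features were not run.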

Additional observations from a re-analysis of the deposited data

Results flagged for a closer look

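Of 320 sets of values (32 members in 10 groups of 4 or 5 libraries), 17 or 5.31% held a library farther from the others than Dixon's limit, where chance gives about 5%. On the low side there were 15 and on the high side 2, in 13 members, and values are in FPKM.

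In controls the low libraries were rostral replicate 1 for siglec15l (0.174), rostral replicate 5 for zgc:91968 (0.243), caudal replicate 2 for si:dkey-102c8.2 (0.257) and caudal replicate 1 for si:dkeyp-116a7.2 (4.12). At 1 wpi they were replicate 2 for ptgdsa in rostral (1.18) and caudal cord (1.23), rostral replicate 1 for si:ch211-195h23.3 (1.29) and rostral replicate 5 for creb3l3b (0.388). At 2 wpi rostral replicate 2 was low for apoa2 (0.765), while rostral replicate 1 was high for TAGAP (4.48) and rostral replicate 2 for creb3l3b (2.36). At 4 wpi rostral replicate 2 was low for lygl2 (0.358) and dap1b (124), rostral replicate 1 for CRTAC1 (27.0), and caudal replicate 4 for lnc.85, listed at 0. At 6 wpi the low libraries were caudal replicate 2 for lnc.85 (1.23) and rostral replicate 4 for si:dkeyp-116a7.2 (23.0).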

How the results depend on the processing

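Which genes meet the limits depended on the processing. Of the 32 members, 16 met them again when 1 was the pseudocount, 14 under an expression limit of 5 FPKM, 12 with group medians, 10 in libraries 1 to 3 and 8 in libraries 4 and 5. Without 1 library, 19 to 32 did, and 23 to 37 genes met the limits in all. Fewest remained without caudal control replicate 1 (19 members), caudal control replicate 2 (20), rostral control replicate 1 (21) and caudal control replicate 5 (21). Without both controls numbered 5, an alternative chosen after seeing the data, 18 members and 39 genes met them. The number of genes was 57 under an expression limit of 0.1 FPKM and 14 under 5 FPKM. The members' median change at 2 wpi was 0.94 rostrally in libraries 1 to 3, 0.26 rostrally and 0.23 caudally in libraries 4 and 5, and 0.55 to 0.81 rostrally and 0.37 to 0.73 caudally without 1 library, lowest caudally without caudal control replicate 1 (0.37).

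Between caudal and rostral cord 0 members were called at any time in any fit run. The rows called at 2 wpi numbered 34, and 22 with quantile normalization, 13 without the trend, 4 in libraries 1 to 3, 0 in libraries 4 and 5 and 16 to 43 without 1 library. With the replicate block they numbered 484. The cause of these shifts was not tested. Members with few fragments, such as apoa2 with 4 to 12 per uninjured library, are limited by depth.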
